A study of Mus musculus with 9 samples.

Results

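Cadherins and protocadherins are membrane proteins whose extracellular cadherin repeats bind calcium and hold neighbouring cells together. The family was followed here in cultured mouse podocytes, the epithelial cells that wrap the capillaries of the kidney glomerulus. Members were all genes whose symbol starts with Pcdh, or with Cdh followed by a number, and that have a probe set annotated with that symbol alone. Where a gene had more than 1 such probe set, the one brightest on average over the 9 arrays was used. This gave 58 of the 22180 genes tested. There were 18 classical cadherins, of which 5 were type I and 13 type II. A further 5 cadherins lie outside those types, 23 genes are clustered protocadherins and 12 are other protocadherins.

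Cells were differentiated for 11 days at 37 °C and RNA was measured on 9 single-colour arrays. In 3 arrays the cells had received both 2.5 µM thapsigargin and 10 µM forskolin for 16 hours, in 3 they had received 2.5 µM thapsigargin alone for 16 hours, and in 3 the vehicle DMSO. Thapsigargin inhibits SERCA, so that the endoplasmic reticulum loses its stored calcium, and forskolin raises cAMP through adenylyl cyclase. The titles number biological replicates in each group but do not say what was separate, so a p-value here covers only the spread between arrays, which may be technical.

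Cadherins are made in the endoplasmic reticulum, and their repeats become rigid only when calcium is bound. Classical cadherins link through catenins to actin at adherens junctions, and the slit diaphragm between podocyte foot processes is regarded as a modified junction of that kind. Clustered protocadherins are encoded in tandem arrays of related genes, best known for giving neurons surface identities, while many of the other protocadherins regulate cell sorting and actin.

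Values are log2 signals made by robust multi-array averaging (RMA), and a change is a difference of group means on that scale with its limma standard error (SE). A gene was called when its limma p, adjusted by Benjamini-Hochberg over all 22180 genes, was below 0.05. A low value can be background, which was not checked, so levels are set against the median of all probe set means, 5.83, and not against one another. By this yardstick 23 members had a mean above the median and 7 a mean above the upper quartile of 7.69. In every group 32 of the 58 members had a mean below the median, so most of the family was dim by this yardstick. The other 26 lay above it in at least 1 group, as did 13565 of the 22180 genes. The median covers all 41345 probe sets, of which 16010 have no symbol, so it is not the middle of the genes tested. A mean under the lower quartile of 4.56 was found for 15 members. In RNA of whole cultures, fewer cells that make a transcript and less of it per cell cannot be told apart.

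Pearson correlations over all probe sets were 0.989 to 0.993 within groups and 0.966 to 0.992 between groups. Of 12 podocyte markers measured, 11 lay above the median in at least 1 group and Ptpro lay below it in all. The summed linear signal of these 12 markers was 11015 to 11391 on the arrays with thapsigargin plus forskolin, 14701 to 14999 on thapsigargin arrays and 20077 to 20272 on DMSO arrays. Markers of tubular and other epithelium moved with some results below. Their summed signal over 15 genes was 5222 to 5385 with thapsigargin plus forskolin, 5269 to 5305 with thapsigargin and 8475 to 8963 with DMSO, with Cldn2, Umod, Slc12a1, Krt18, Epcam and Cldn4 below the median in every group. The summed signal of 4 parietal epithelial markers was 1312 to 1331 with thapsigargin plus forskolin, 1262 to 1328 with thapsigargin and 2390 to 2692 with DMSO, with 3 of the 4 lower with thapsigargin than with DMSO and Krt23 below the median in every group. That of 9 endothelial markers was 892 to 950 with thapsigargin plus forskolin, 982 to 999 with thapsigargin and 1713 to 1776 with DMSO. Pecam1, Tek and Emcn lay below the median in every group. With thapsigargin against DMSO 2 of the 9 were lower and 7 not called, with a median change of -0.02. Their mean log2 value was 5.94 to 5.98 with thapsigargin and 6.12 to 6.16 with DMSO. Over all genes 16.9% were lower in that comparison, which stands beside both the parietal and the endothelial counts. The part of such cells in the results was not tested.

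Over the 58 members more genes moved down than up under thapsigargin, but the excess over all genes was not shared by every class. With thapsigargin alone 19 of the 58 members were lower than with DMSO and 2 were higher, which is 32.8% and 3.45% of the members. Over all genes tested the shares were 16.9% lower and 18.2% higher. The excess of lower members lay in the clustered protocadherins, with 10 of 23 lower, and the cadherins outside the classical types, with 4 of 5. Of the 18 classical cadherins and of the 12 other protocadherins 16.7% each were lower, close to the share of all genes. The Pcdhb genes, which make up most of the clustered ones, are close copies, and signal shared between their probes was not tested. The median change of the members was -0.15, beside -0.04 for all genes, and 81% of the members had a negative change, beside 57.9% of all genes. With thapsigargin plus forskolin against DMSO, 18 members were lower and 2 higher, beside 16.7% and 17.9% of all genes, and the median was -0.19 for members and -0.04 for all genes. Adding forskolin to thapsigargin left 5 members lower and 2 higher than thapsigargin alone, beside 4.17% and 3.7% of all genes, which is 8.62% and 3.45% of the members. The 3 comparisons share arrays in pairs, so they are not independent of one another.

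**Figure D1:**
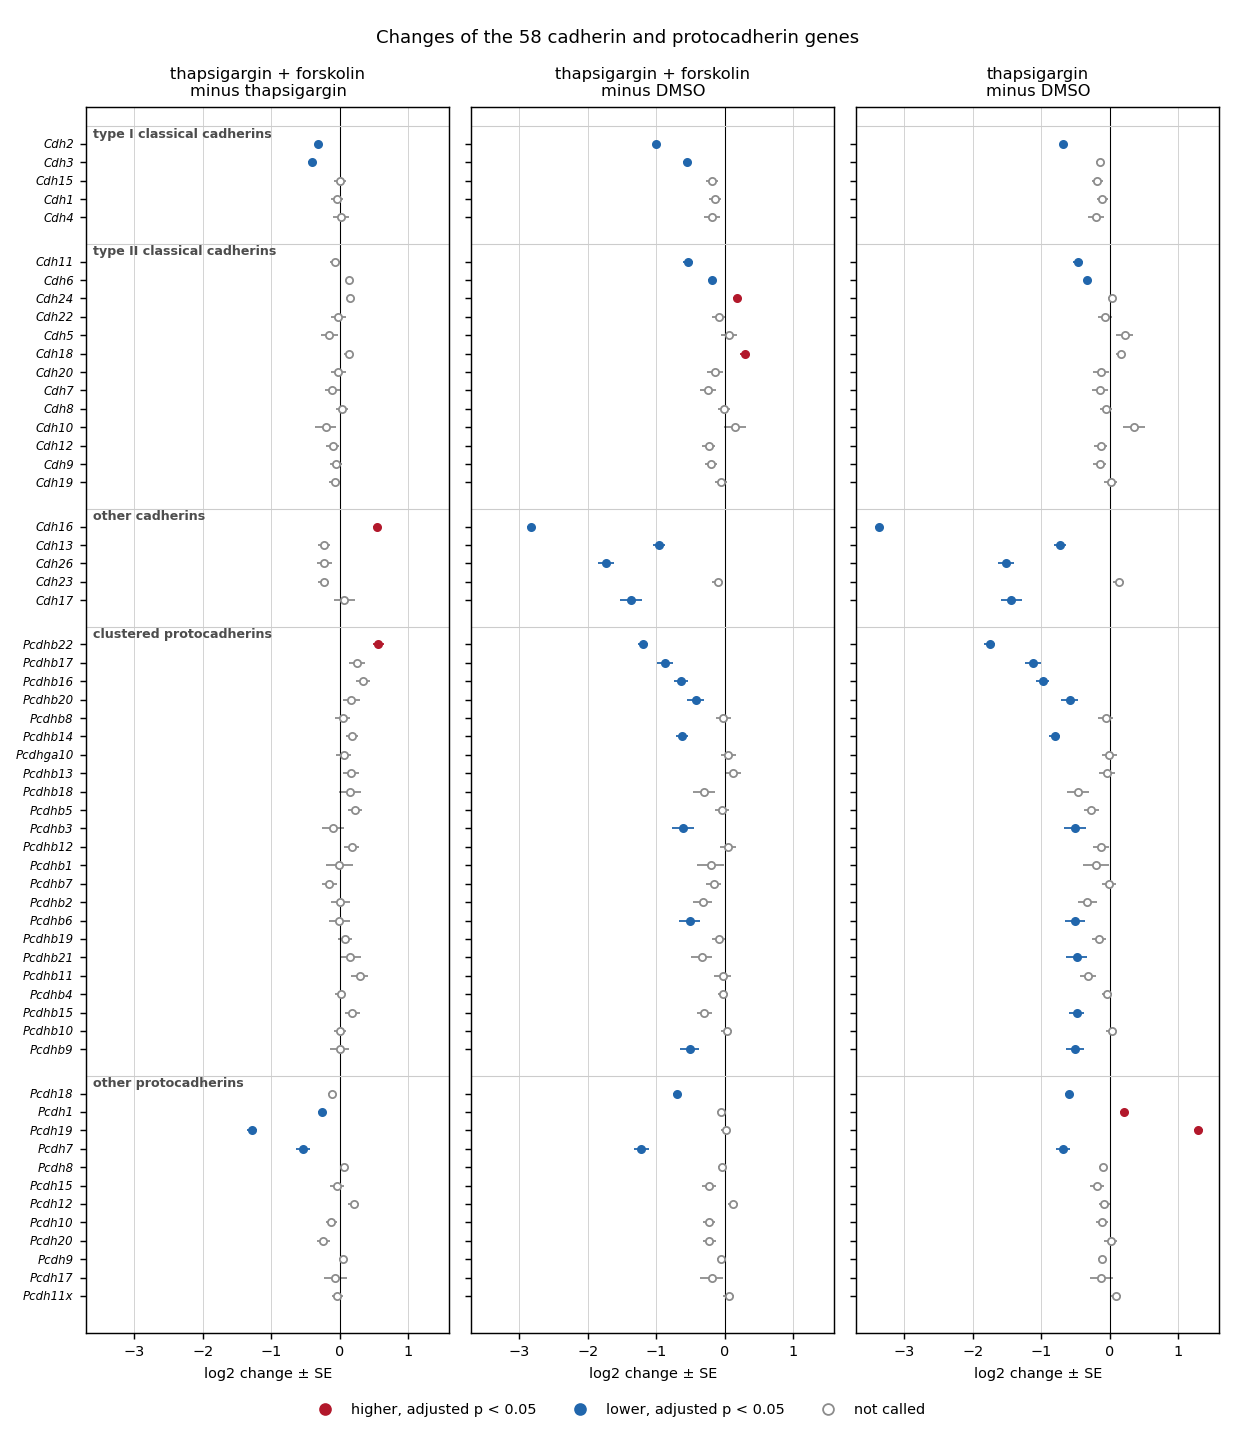
Log2 change ± SE (limma, n = 3 arrays per group) of each of the 58 members, grouped by class, for thapsigargin plus forskolin against thapsigargin, the same against DMSO, and thapsigargin against DMSO. Filled points were called at an adjusted p below 0.05. The points farthest from 0 are Cdh16 at -3.37 and, upward, Pcdh19 at 1.29, both for thapsigargin against DMSO.

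Changes of at least 2-fold were fewer. With thapsigargin alone 5 members were called at least 2-fold lower than with DMSO, beside 2.94% of all genes, and 1 was at least 2-fold higher, beside 3.08%. Against DMSO the combined treatment left 5 at least 2-fold lower and 0 higher, beside 2.7% and 2.57% of all genes. Between the treated groups 1 was at least 2-fold lower and 0 higher, beside 0.131% and 0.271%. In all, 24 members were called in at least 1 comparison and 34 in none. The same count was not made over all genes, so it is not read as a result about the family. The uncalled members had mean levels from 3.07 to 6.51, the highest being Cdh22 at 6.51, Cdh15 at 6.24 and Pcdh8 at 6.17.

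**Figure D2:**
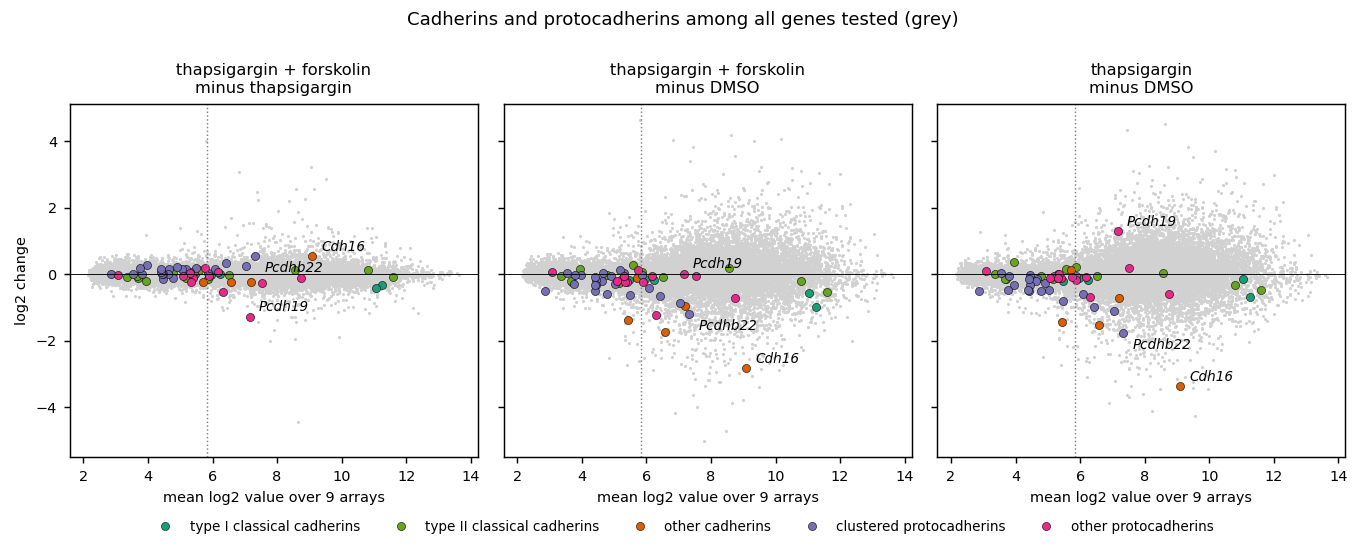
Change (vertical axis, log2) against mean log2 value over the 9 arrays (horizontal axis) for all genes tested (grey) and the members (coloured by class) in the 3 comparisons. The dotted line is the median of all probe set means, 5.83. Most clustered protocadherins lie left of it, and Cdh16, Pcdh19 and Pcdhb22 are labelled.

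Promoters are shown for 3 called members with distinct patterns. Pcdh19 rose with thapsigargin and not with the combined treatment, Cdh26 fell with both treatments, and Pcdh7 fell in steps. Each is 300 bases from RefSeq on GRCm38.p6, from 250 bases before the transcription start to 50 after it, read 5′ to 3′ on the gene's strand. They lie at chrX:133688944-133689243 on the minus strand for Pcdh19, chr2:178430265-178430564 on the plus strand for Cdh26 and chr5:57717831-57718130 on the plus strand for Pcdh7. Capitals mark the only motif matches found, a CCAAT box on the opposite strand in Pcdh19 and Cdh26 and an E-box in Pcdh7.
Pcdh19: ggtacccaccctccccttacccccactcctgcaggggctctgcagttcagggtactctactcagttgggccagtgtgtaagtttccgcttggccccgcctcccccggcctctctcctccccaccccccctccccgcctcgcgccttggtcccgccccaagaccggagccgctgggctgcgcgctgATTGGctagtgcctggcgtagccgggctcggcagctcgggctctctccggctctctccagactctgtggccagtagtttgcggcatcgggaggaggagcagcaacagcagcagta
Cdh26: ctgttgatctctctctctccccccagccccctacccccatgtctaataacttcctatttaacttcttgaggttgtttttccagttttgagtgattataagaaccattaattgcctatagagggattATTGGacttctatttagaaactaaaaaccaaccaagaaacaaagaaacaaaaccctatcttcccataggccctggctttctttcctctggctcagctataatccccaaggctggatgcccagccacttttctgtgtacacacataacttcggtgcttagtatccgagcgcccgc
Pcdh7: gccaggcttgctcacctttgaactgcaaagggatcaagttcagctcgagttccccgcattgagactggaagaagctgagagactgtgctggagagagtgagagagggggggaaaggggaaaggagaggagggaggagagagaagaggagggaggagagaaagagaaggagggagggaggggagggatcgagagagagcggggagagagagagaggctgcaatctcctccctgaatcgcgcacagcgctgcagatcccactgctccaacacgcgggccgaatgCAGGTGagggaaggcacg

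Motifs were searched as exact letters on both strands. The cAMP response element TGACGTCA was in 1.88% of 27025 promoters of that length, the ER stress response element, CCAAT and CCACG with 9 bases between, in 0.13%, and the CHOP-ATF composite site TGATGNAAT in 0.969%. The CCAAT box, which is also the start of the ER stress element, was in 37.9%, and the E-box CAGGTG, which SNAI and ZEB factors bind, in 20%. The 26 members on chromosome 18, among them Cdh2, Pcdh1 and all Pcdhb genes, were left out of the motif counts. Of the other members the promoter table held 22, 7 of them called in at least 1 comparison. None of the 22 held the first 3 motifs, 15 held a CCAAT box and 3 the E-box, and of the 7 called, 4 held a CCAAT box and 1 the E-box. A match describes letters in this window, and a missing match says only that these letters are not there.

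Of the type I classical cadherins, Cdh2 and Cdh3 were the members well above the upper quartile. Cdh2 encodes N-cadherin, the cadherin of mesenchymal and neural cells. It read 10.81, 10.76 and 10.86 on the arrays with thapsigargin plus forskolin, 11.12 on each of the 3 thapsigargin arrays, and 11.77, 11.82 and 11.82 on DMSO arrays. The 3 groups did not overlap, with the combined treatment lowest and DMSO highest. Cdh2 fell by 0.68 ± 0.05 with thapsigargin against DMSO (limma adjusted p = 3.1e-06) and by a further 0.31 ± 0.05 with forskolin added (limma adjusted p = 0.00381). Against DMSO the combined treatment gave -0.998 ± 0.05 (limma adjusted p = 3.04e-07). The identical thapsigargin values lower the spread estimated for this probe set. A second Cdh2 probe set, not used for the counts, gave -0.82 for thapsigargin against DMSO, -0.38 for forskolin added and -1.20 for the combined treatment against DMSO.

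Cdh3 encodes P-cadherin, which has been described at the podocyte slit diaphragm. Its values were 10.64, 10.83 and 10.72 with thapsigargin plus forskolin, 11.17, 11.12 and 11.12 with thapsigargin, and 11.27, 11.29 and 11.30 with DMSO. The combined arrays were all lower than the thapsigargin arrays, which were all lower than the DMSO arrays, by a narrow margin in the last case. Forskolin added to thapsigargin changed Cdh3 by -0.41 ± 0.06 (limma adjusted p = 0.00261), and the combined treatment differed from DMSO by -0.56 ± 0.06 (limma adjusted p = 5.1e-05). Thapsigargin alone gave -0.15 ± 0.06 against DMSO (limma adjusted p = 0.0893). That difference was called with an intensity trend and robust prior, after another quantile normalization and among genes above the median (limma adjusted p = 0.0179, 0.00885 and 0.0404). For both Cdh2 and Cdh3 the combined treatment therefore gave the lowest values.

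The other type I cadherins were close to the median and not called in any comparison. Cdh1 encodes E-cadherin, the cadherin of most epithelia. It read 6.02, 5.96 and 5.72 with thapsigargin plus forskolin, 5.97, 5.97 and 5.88 with thapsigargin, and 6.14, 6.04 and 5.97 with DMSO. Cdh4, which encodes R-cadherin, read 5.54, 5.20 and 5.48 with thapsigargin plus forskolin, 5.44, 5.28 and 5.44 with thapsigargin, and 5.81, 5.52 and 5.45 with DMSO. Cdh1 changed by -0.11 ± 0.09 with thapsigargin against DMSO (limma adjusted p = 0.384), and Cdh4 by -0.21 ± 0.12 (limma adjusted p = 0.222). Background was not checked at these levels.

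**Figure D3:**
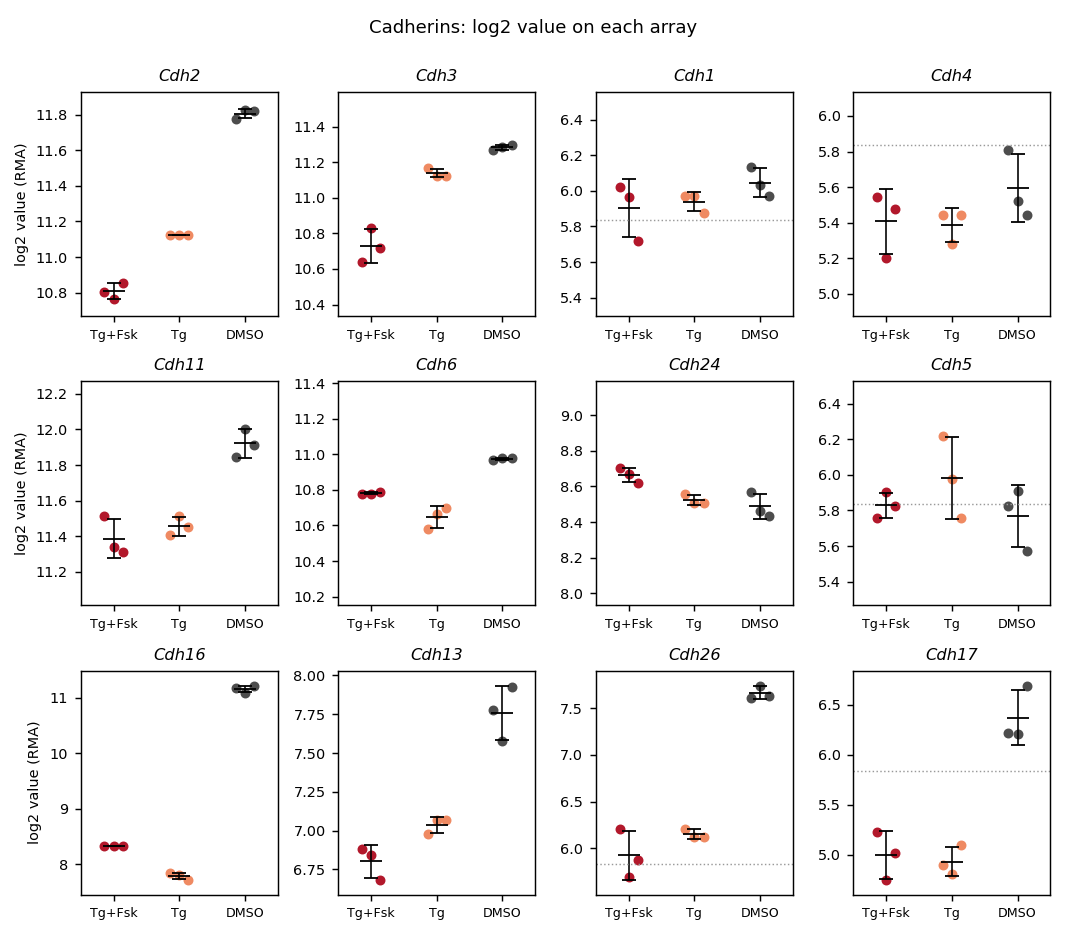
Log2 value of named cadherins on each array for thapsigargin plus forskolin (Tg+Fsk), thapsigargin (Tg) and DMSO. Dots are arrays and bars are means ± SD (n = 3); each panel has its own axis, which does not start at 0, and the dotted line, where in range, is the median of all probe set means, 5.83. In Cdh16 and Cdh26 every array of both thapsigargin groups lies below every DMSO array.

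Among the type II cadherins Cdh11 and Cdh6 were bright and fell, and no type II cadherin was called when forskolin was added to thapsigargin. Cdh11 encodes OB-cadherin, first described in osteoblasts and typical of mesenchymal cells. It read 11.51, 11.34 and 11.31 with thapsigargin plus forskolin, 11.40, 11.51 and 11.45 with thapsigargin, and 11.85, 12.01 and 11.91 with DMSO. Both treated groups lay below DMSO and overlapped each other. Cdh11 changed by -0.47 ± 0.07 with thapsigargin against DMSO (limma adjusted p = 0.000559) and by -0.54 ± 0.07 with the combined treatment against DMSO (limma adjusted p = 0.000244). The difference between the treated groups was -0.07 ± 0.07 (limma adjusted p = 0.694). With thapsigargin against DMSO 16.9% of all genes were lower and 18.2% higher. Of 9 mesangial and pericyte markers 3 were lower, 0 higher and 6 not called in that comparison, with a median change of -0.19. Their summed signal was 5057 to 5403 with thapsigargin plus forskolin, 6916 to 6987 with thapsigargin and 12084 to 12538 with DMSO, with Itga8, Rgs5, Des and Pdgfra below the median in every group. With forskolin added 2 of the 9 were higher, Mcam and Pdgfrb, and 1 lower, Acta2, beside 3.7% higher and 4.17% lower of all genes. The mean log2 value of the 9 markers was 7.38 to 7.51 with thapsigargin plus forskolin, 7.22 to 7.28 with thapsigargin and 7.56 to 7.66 with DMSO. The part of such cells in the falls of Cdh2 and Cdh11 was not tested.

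Cdh6 encodes K-cadherin, known from the developing nephron. It read 10.78, 10.78 and 10.79 with thapsigargin plus forskolin, 10.58, 10.66 and 10.70 with thapsigargin, and 10.97, 10.98 and 10.98 with DMSO. Here the thapsigargin arrays were lowest and the combined arrays lay between them and DMSO, with no overlap. Cdh6 changed by -0.33 ± 0.05 with thapsigargin against DMSO (limma adjusted p = 0.000522) and by -0.19 ± 0.05 with the combined treatment against DMSO (limma adjusted p = 0.0132). The step of 0.13 ± 0.05 between the treated groups was not called (limma adjusted p = 0.166), except with an intensity trend and robust prior (limma adjusted p = 0.0227).

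Cdh24, a type II cadherin known to bind catenins, read 8.70, 8.67 and 8.62 with thapsigargin plus forskolin, 8.56, 8.51 and 8.51 with thapsigargin, and 8.57, 8.46 and 8.44 with DMSO. It was slightly higher with the combined treatment than with DMSO, by 0.18 ± 0.06 (limma adjusted p = 0.0339). The call was lost without DMSO replicate 2 or 3, thapsigargin replicate 2, or combined replicate 1 or 2 (limma adjusted p = 0.0955, 0.0913, 0.0512, 0.0923 and 0.0896). It was also lost in a fit of the 6 arrays compared (0.0738) and after another quantile normalization, where the change was 0.098 (limma adjusted p = 0.294). Cdh18, below the median in every group, was higher by 0.29 ± 0.06 in the same comparison (limma adjusted p = 0.00655). Cdh5, which encodes the VE-cadherin of endothelium, read 5.76, 5.90 and 5.82 with thapsigargin plus forskolin, 6.22, 5.97 and 5.76 with thapsigargin, and 5.82, 5.91 and 5.57 with DMSO, and was not called.

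Over the 18 classical cadherins, 3 were lower and 0 higher with thapsigargin against DMSO, with a median change of -0.13. The lower share, 16.7%, was close to the 16.9% of all genes, and 18.2% of all genes were higher. When forskolin was added 2 were lower and 0 higher, beside 4.17% and 3.7% of all genes. Set against DMSO, the combined treatment left 4 lower and 2 higher, beside 16.7% and 17.9%.

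Of the 5 cadherins outside the classical types, 4 were lower with thapsigargin than with DMSO and 0 higher, beside 16.9% and 18.2% of all genes, and Cdh16 had the largest fall of the 58 members. Cdh16 encodes Ksp-cadherin, the kidney-specific cadherin of tubular epithelium. It read 8.32, 8.32 and 8.33 with thapsigargin plus forskolin, 7.83, 7.81 and 7.72 with thapsigargin, and 11.17, 11.09 and 11.21 with DMSO. Every treated array was far below every DMSO array, and the combined arrays lay above those with thapsigargin alone. Cdh16 was 10.3-fold lower with thapsigargin than with DMSO (log2 change -3.37 ± 0.05, limma adjusted p = 1.19e-09). Forskolin added to thapsigargin raised it by 0.54 ± 0.05 (limma adjusted p = 0.000382). It was still 7.12-fold lower than with DMSO (log2 change -2.83 ± 0.05, limma adjusted p = 2.53e-09). Beside these shares of all genes, 5 of the 15 tubular and other epithelial markers were lower and 0 higher with thapsigargin against DMSO. The remaining 10 were not called, and the median change of the 15 was -0.11. The 5 included the water channel gene Aqp1 at -3.24, named after its value was seen. The part of such cells in the fall of Cdh16 was not tested.

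Cdh13 encodes T-cadherin, which is held in the membrane by a lipid anchor and binds adiponectin. Its values were 6.88, 6.84 and 6.68 with thapsigargin plus forskolin, 6.98, 7.07 and 7.07 with thapsigargin, and 7.78, 7.58 and 7.93 with DMSO. Both treated groups were below DMSO on every array. The change was -0.73 ± 0.09 with thapsigargin against DMSO (limma adjusted p = 0.000154) and -0.96 ± 0.09 with the combined treatment against DMSO (limma adjusted p = 2.57e-05).

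Cdh26 and Cdh17 fell to values near or under the median of all probe sets. Cdh26, known from gut epithelium in people, read 6.21, 5.69 and 5.87 with thapsigargin plus forskolin, 6.21, 6.12 and 6.12 with thapsigargin, and 7.62, 7.74 and 7.64 with DMSO. Cdh17, which encodes the LI-cadherin of intestine, read 5.23, 4.75 and 5.02 with thapsigargin plus forskolin, 4.90, 4.81 and 5.10 with thapsigargin, and 6.22, 6.21 and 6.69 with DMSO. In both genes no treated array reached the DMSO range. The printed Cdh26 promoter holds 1 CCAAT match, a box found in 37.9% of all promoters searched. With thapsigargin against DMSO, Cdh26 changed by -1.51 ± 0.11 (limma adjusted p = 4.9e-06) and Cdh17 by -1.44 ± 0.16 (limma adjusted p = 6.05e-05). With the combined treatment against DMSO, Cdh26 changed by -1.74 ± 0.11 (limma adjusted p = 2.2e-06) and Cdh17 by -1.37 ± 0.16 (limma adjusted p = 9.35e-05). Background was not checked at the lower values, so the sizes are those of the deposited signals. Between the treated groups Cdh26 differed by -0.23 ± 0.11 (limma adjusted p = 0.343), and by -0.37 without combined replicate 1 (limma adjusted p = 0.0288). Cdh23, a long cadherin of hair cell tip links, was called in no comparison.

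The clustered protocadherins were represented almost wholly by the beta genes. Of 92 mouse genes in RefSeq that match the naming rule of the whole family, 58 were measured. The rest were genes of the alpha and gamma clusters. Of those, 18 lay only on probe sets shared by several symbols and 16 were not listed for any probe set. The clustered genes measured were 22 Pcdhb genes and Pcdhga10. With thapsigargin against DMSO 10 of the 22 Pcdhb genes were lower and 0 higher, beside 16.9% and 18.2% of all genes. The median change of the 22 was -0.40, beside -0.04 for all genes, and 95.5% had a negative change, beside 57.9% of all genes. With the combined treatment against DMSO 8 were lower and 0 higher, beside 16.7% and 17.9% of all genes, with a median of -0.30. When forskolin was added to thapsigargin 1 was higher and 0 lower, beside 3.7% and 4.17% of all genes, with a median of 0.15, while the median of all genes was -0.0060. The Pcdhb genes are close copies of one another, and how far their probes take up each other's transcripts was not tested. Among those called lower with thapsigargin, Pcdhb6, Pcdhb9, Pcdhb15 and Pcdhb21 had means under the lower quartile of all probe sets, 4.56. Of 9 neuronal markers 0 were lower and 1 higher with thapsigargin against DMSO, and 6 lay below the median in every group.

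Pcdhb22 had the largest changes of the cluster. It read 7.05, 7.17 and 7.14 with thapsigargin plus forskolin, 6.52, 6.48 and 6.67 with thapsigargin, and 8.20, 8.28 and 8.45 with DMSO. The groups did not overlap, and the combined arrays lay between the others. Pcdhb22 was 3.37-fold lower with thapsigargin than with DMSO (log2 change -1.75 ± 0.08, limma adjusted p = 1.86e-07). It was higher by 0.56 ± 0.08 when forskolin was added (limma adjusted p = 0.00261) and differed from DMSO by -1.19 ± 0.08 with the combined treatment (limma adjusted p = 2.4e-06). It was the one clustered protocadherin called between the treated groups.

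Pcdhb17 read 6.63, 6.98 and 6.92 with thapsigargin plus forskolin, 6.54, 6.60 and 6.64 with thapsigargin, and 7.49, 7.82 and 7.83 with DMSO. Pcdhb16 read 6.25, 6.41 and 6.32 with thapsigargin plus forskolin, 6.07, 5.84 and 6.05 with thapsigargin, and 6.95, 6.81 and 7.14 with DMSO. All treated arrays of both genes lay below DMSO, and the treated groups overlapped each other for Pcdhb17 but not for Pcdhb16. Against DMSO thapsigargin gave -1.12 ± 0.11 for Pcdhb17 and -0.98 ± 0.10 for Pcdhb16 (limma adjusted p = 3.68e-05 and 3.13e-05), and the combined treatment gave -0.87 ± 0.11 and -0.64 ± 0.10 (limma adjusted p = 0.000224 and 0.000598). The step of 0.34 ± 0.10 between the treated groups in Pcdhb16 was not called (limma adjusted p = 0.0757), but was without DMSO replicate 3, with array weights and among genes above the median (limma adjusted p = 0.0462, 0.0485 and 0.0331).

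Pcdhb14 and Pcdhb20 were nearer the median. Pcdhb14 read 5.18, 5.35 and 5.46 with thapsigargin plus forskolin, 5.23, 5.05 and 5.17 with thapsigargin, and 5.96, 5.88 and 6.03 with DMSO. Pcdhb20 read 5.80, 6.02 and 6.17 with thapsigargin plus forskolin, 5.74, 5.998 and 5.75 with thapsigargin, and 6.20, 6.47 and 6.57 with DMSO. The treated arrays of both genes were all below DMSO, for Pcdhb20 by a small gap. Thapsigargin against DMSO gave -0.81 ± 0.08 for Pcdhb14 and -0.59 ± 0.12 for Pcdhb20 (limma adjusted p = 4.21e-05 and 0.00433), and the combined treatment against DMSO gave -0.63 ± 0.08 and -0.42 ± 0.12 (limma adjusted p = 0.000258 and 0.0261). The last call was lost without DMSO replicate 2 or 3 or combined replicate 1 or 2 (limma adjusted p = 0.0811, 0.0833, 0.0822 and 0.0595).

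The remaining called Pcdhb genes were below the median in every group. Of these, Pcdhb6, Pcdhb9, Pcdhb15 and Pcdhb21 had means over the 9 arrays of 4.42, 2.87, 3.75 and 4.40, under the lower quartile of 4.56. With thapsigargin against DMSO the changes were -0.50 for Pcdhb3, -0.51 for Pcdhb6, -0.51 for Pcdhb9, -0.48 for Pcdhb15 and -0.48 for Pcdhb21. The calls of Pcdhb3, Pcdhb6, Pcdhb9 and Pcdhb21 were lost when certain single arrays were left out, those of Pcdhb3 and Pcdhb21 also after centring on array medians (limma adjusted p = 0.06 and 0.0531), and that of Pcdhb21 also in a fit of the 6 arrays compared and with array weights (0.0631 and 0.0641). For Pcdhb3 the arrays were DMSO replicates 2 and 3 and any thapsigargin array (limma adjusted p from 0.0579 to 0.122), and for Pcdhb6 DMSO replicates 1 and 2 and thapsigargin replicates 1 and 3 (from 0.0689 to 0.0913). For Pcdhb21 they were DMSO replicates 1 and 3 and thapsigargin replicates 1 and 2 (from 0.0938 to 0.12), and for Pcdhb9 thapsigargin replicate 3 (0.0664). With the combined treatment against DMSO Pcdhb3 changed by -0.61, Pcdhb6 by -0.52 and Pcdhb9 by -0.51, while Pcdhb15 and Pcdhb21 were not called (limma adjusted p = 0.0564 and 0.131). In that comparison Pcdhb6 lost its call without DMSO replicate 1 or 2 or combined replicate 2 or 3 (limma adjusted p from 0.0692 to 0.089) and Pcdhb9 without combined replicate 2 or 3 (0.0595 and 0.0543), and Pcdhb15 and Pcdhb21 gained one without DMSO replicate 2 (0.0248 and 0.0201). Pcdhb15 gained one there also after centring on array medians and after another quantile normalization (limma adjusted p = 0.0491 and 0.0292).

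More genes in the later part of the cluster were called lower, and more of them had a DMSO mean above the median. In the order of RefSeq, 7 of the 9 genes from Pcdhb14 to Pcdhb22 were lower with thapsigargin than with DMSO, against 3 of the 13 from Pcdhb1 to Pcdhb13. This division was chosen after the values were seen and was given no test. The DMSO mean lay above the median for 5 of those 9 genes and for 1 of those 13, namely Pcdhb8. Whether level or position goes with the falls cannot be told apart here. The DMSO mean is also the baseline of each fall, so level and fall are not independent.

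**Figure D4:**
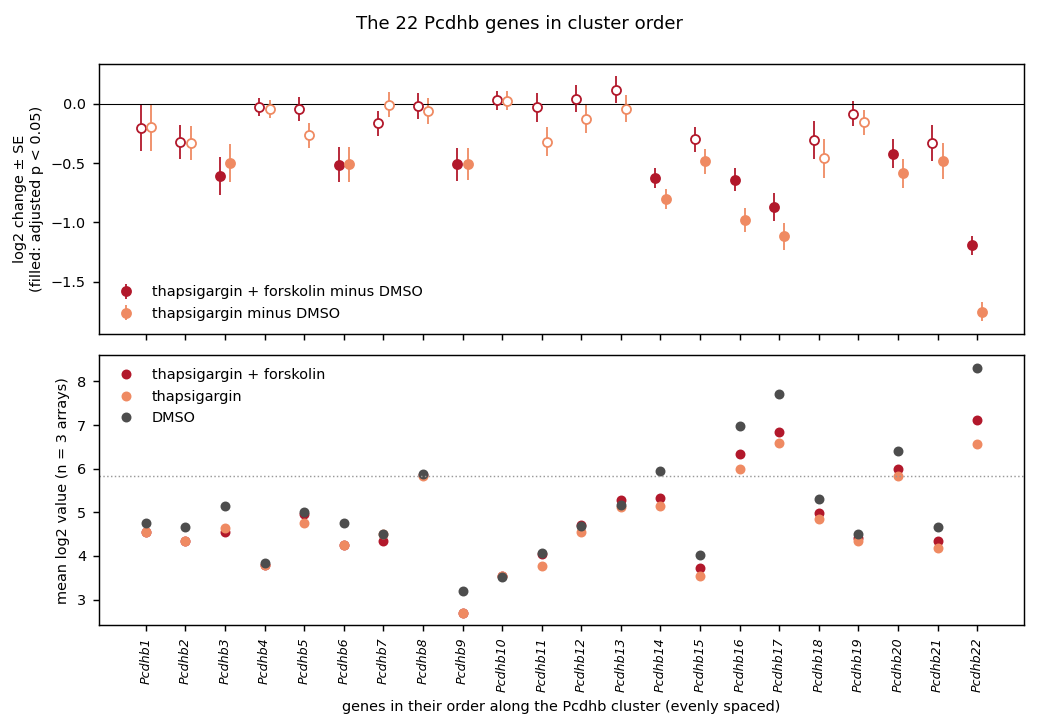
The 22 Pcdhb genes in RefSeq order along the cluster, evenly spaced. Top, log2 change ± SE (n = 3 per group) of thapsigargin plus forskolin and of thapsigargin, each against DMSO, filled where called. Bottom, the mean log2 value of each group with the median of all probe set means, 5.83, dotted. The falls are deepest at Pcdhb22, Pcdhb17 and Pcdhb16, whose DMSO means are also the highest of the cluster.

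Probe sets that several alpha or gamma symbols share were not called in any comparison, with values from 5.55 to 5.84 for the alpha set and 4.77 to 5.14 for the gamma set. Pcdhga10 on its own probe set was not called. A probe set shared by Pcdhga10 and Gm19774 was bright, reading 11.88, 12.001 and 12.08 with thapsigargin plus forskolin, 12.11, 12.05 and 12.15 with thapsigargin, and 12.32, 12.26 and 12.34 with DMSO. Its change was -0.20 with thapsigargin against DMSO and -0.32 with the combined treatment against DMSO (limma adjusted p = 0.0327 and 0.00308). It cannot be assigned to either symbol and was left out of the counts. For shared probe sets the adjusted p came from a separate fit of the 23521 probe sets with 1 symbol and the 1814 with several.

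Among the other protocadherins Pcdh19 stood apart. Pcdh19 is X-linked and encodes a protocadherin that acts in neuronal sorting, and in people its mutations cause an epilepsy. It read 6.76, 6.67 and 6.78 with thapsigargin plus forskolin, 8.07, 7.90 and 8.08 with thapsigargin, and 6.76, 6.65 and 6.77 with DMSO. Every thapsigargin array was above every other array, while the combined and DMSO arrays overlapped. Its printed promoter holds 1 CCAAT match, a box found in 37.9% of all promoters searched. It holds no cAMP response element, which only 1.88% of those promoters hold. Pcdh19 was 2.45-fold higher with thapsigargin than with DMSO (log2 change 1.29 ± 0.07, limma adjusted p = 4.17e-07). It changed by -1.28 ± 0.07 when forskolin was added (limma adjusted p = 6.16e-06). Between the combined treatment and DMSO it differed by 0.01 ± 0.07 (limma adjusted p = 0.917), with a 95% interval from -0.14 to 0.16.

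Pcdh1 is a protocadherin of airway and other epithelia. It read 7.40, 7.38 and 7.47 with thapsigargin plus forskolin, 7.68, 7.60 and 7.76 with thapsigargin, and 7.47, 7.48 and 7.49 with DMSO. As for Pcdh19, the thapsigargin arrays were all above the others, while the highest combined array met the lowest DMSO array at 7.47. It was higher by 0.20 ± 0.06 with thapsigargin against DMSO and changed by -0.26 ± 0.06 when forskolin was added (limma adjusted p = 0.0219 and 0.0229). The first call was lost without DMSO replicate 2 or thapsigargin replicate 1 or 3 (limma adjusted p = 0.0543, 0.0588 and 0.0834). The second was lost without thapsigargin replicate 1 or 3 or combined replicate 1 or 2 (limma adjusted p = 0.0773, 0.0853, 0.0745 and 0.0917).

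Pcdh7 and Pcdh18 fell. Pcdh7, also called NF-protocadherin, is known to bind a protein phosphatase. It read 5.74, 5.74 and 5.70 with thapsigargin plus forskolin, 6.31, 6.27 and 6.22 with thapsigargin, and 6.68, 7.005 and 7.15 with DMSO. The groups did not overlap, with the combined treatment lowest and DMSO highest. Its printed promoter holds the E-box match, which lies after the transcription start. That motif was found in 20% of all promoters searched. Pcdh7 changed by -0.68 ± 0.10 with thapsigargin against DMSO (limma adjusted p = 0.000557), by -0.54 ± 0.10 when forskolin was added (limma adjusted p = 0.0128) and by -1.22 ± 0.10 with the combined treatment against DMSO (limma adjusted p = 1.23e-05). The call for added forskolin was lost without thapsigargin replicate 1 or combined replicate 3 (limma adjusted p = 0.055 and 0.0512).

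Pcdh18, of the delta group of protocadherins, read 8.46, 8.42 and 8.53 with thapsigargin plus forskolin, 8.61, 8.52 and 8.62 with thapsigargin, and 9.17, 9.14 and 9.21 with DMSO. Both treated groups were clearly below DMSO. Pcdh18 changed by -0.59 ± 0.06 with thapsigargin against DMSO and by -0.70 ± 0.06 with the combined treatment against DMSO (limma adjusted p = 1.92e-05 and 6.78e-06), and the treated groups differed by -0.11 ± 0.06 (limma adjusted p = 0.325). Of the 12 other protocadherins as a class, 2 were higher and 2 lower with thapsigargin against DMSO, each 16.7%, close to the 18.2% higher and 16.9% lower of all genes. When forskolin was added 3 were lower and 0 higher, beside 4.17% and 3.7% of all genes.

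**Figure D5:**
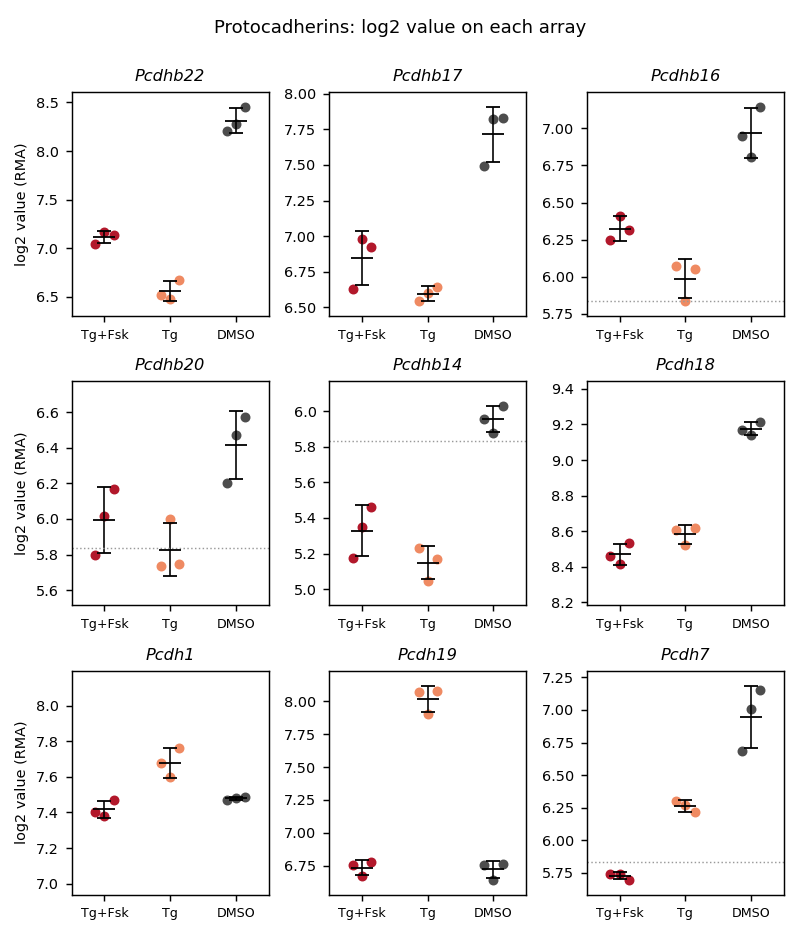
Log2 value of named protocadherins on each array for thapsigargin plus forskolin (Tg+Fsk), thapsigargin (Tg) and DMSO. Dots are arrays and bars are means ± SD (n = 3); axes differ between panels and do not start at 0, and the dotted line, where in range, is the median of all probe set means, 5.83. Pcdh19 is high on the 3 thapsigargin arrays alone, and the Pcdhb genes are highest on DMSO arrays.

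Genes of the proteins that cadherins bind were followed in a list of catenins and adaptors. With thapsigargin 13 of these 18 genes were lower and 0 higher than with DMSO, beside 16.9% and 18.2% of all genes, with a median of -0.52. The largest were Plekha7 at -1.87, Ctnnal1 at -1.82, Arvcf at -1.57 and Jup, which encodes plakoglobin, at -1.54. The catenins that bind classical cadherins directly or link them to actin, named after their values were seen, gave -0.50 for Ctnnb1, -0.80 for Ctnnd1 and -0.36 for Ctnna1. When forskolin was added 2 were higher, Ctnnal1 at 0.53 and Jup at 0.38, and 2 lower, the actin binders Lima1 at -0.45 and Vcl at -0.35, beside 3.7% higher and 4.17% lower of all genes. Against DMSO the combined treatment gave 13 lower and 1 higher, beside 16.7% and 17.9% of all genes, led by Plekha7 at -1.81, Ctnnd2 at -1.59, Arvcf at -1.40 and Lima1 at -1.33.

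Of 24 other genes of the cadherin superfamily 6 were lower and 0 higher with thapsigargin against DMSO, beside 16.9% and 18.2% of all genes, led by Clstn2 at -1.33, the planar polarity gene Celsr2 at -0.90, Clstn1 at -0.80 and Fat4 at -0.62. The combined treatment against DMSO gave 7 lower and 0 higher, beside 16.7% and 17.9% of all genes, led by Clstn2 at -0.99, Clstn1 at -0.95, Celsr2 at -0.71 and Fat4 at -0.48. The Fat4 call there was lost without DMSO replicate 2 or combined replicate 2 (limma adjusted p = 0.0501 and 0.0517). Adding forskolin raised Clstn2 alone, by 0.34, and the call was lost in a fit of the 6 arrays compared and after centring on array medians (limma adjusted p = 0.0632 and 0.0816). It was also lost without DMSO replicate 2, thapsigargin replicate 1 or 2, or any combined array (limma adjusted p from 0.0615 to 0.138).

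The 15 measured factors linked to epithelial-mesenchymal transitions include drivers, such as Snai2, and epithelial factors, such as Esrp2. Of these 15, 5 were higher and 1 lower with thapsigargin against DMSO, beside 18.2% and 16.9% of all genes. As the list is mixed, the count gives no direction for such transitions. Snai2, a repressor of Cdh1, rose by 0.95, Foxc2 by 0.66, the splicing factor gene Esrp2 by 0.59 and Twist2 by 0.50. The Twist2 call was lost without DMSO replicate 2 or thapsigargin replicate 1 (limma adjusted p = 0.066 and 0.0666). When forskolin was added Snai2 changed by -0.47 and Foxc2 by -0.25, and 0 factors were higher, beside 4.17% lower and 3.7% higher of all genes. The Foxc2 call was lost after another quantile normalization (limma adjusted p = 0.0993), without DMSO replicate 2 and without any 1 of the 6 treated arrays (limma adjusted p from 0.0501 to 0.122). Relative to DMSO, 5 were higher and 0 lower with the combined treatment, beside 17.9% and 16.7% of all genes, among them Twist2 at 0.78, Esrp2 at 0.64, Snai2 at 0.48 and Foxc2 at 0.41.

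Of 16 measured genes of cadherin proprotein cleavage and shedding 8 were lower and 0 higher with thapsigargin against DMSO, beside 16.9% and 18.2% of all genes. Pcsk6, a proprotein convertase, gave -2.03, Furin -0.75, Pcsk5 -0.55 and the calpain gene Capn2 -0.47. Added forskolin raised Pcsk5 by 1.52, and the metalloprotease gene Mmp9 gave -0.999; of all genes 3.7% were higher and 4.17% lower. Relative to DMSO, 7 were lower and 1 higher with the combined treatment, beside 16.7% and 17.9% of all genes, with Pcsk6 at -1.94, Pcsk5 at 0.97, Mmp9 at -0.78 and Furin at -0.72.

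Of 18 measured nectins and other adhesion molecules of the slit or junction 7 were lower and 1 higher with thapsigargin against DMSO, beside 16.9% and 18.2% of all genes. F11r, which encodes the junctional molecule JAM-A, gave -0.91, Kirrel, which encodes the slit protein Neph1, -0.80, Jam2 -0.80 and Kirrel3 -0.68. Added forskolin raised Igsf5 by 0.50, F11r by 0.40 and Kirrel by 0.37, while Cd2ap, a podocyte adaptor gene, gave -0.25, where 3.7% of all genes were higher and 4.17% lower. The Cd2ap call was lost without thapsigargin replicate 2 or 3 or combined replicate 2 or 3 (limma adjusted p from 0.0512 to 0.0549). In the combined treatment against DMSO 6 were lower and 0 higher, beside 16.7% and 17.9% of all genes, led by Kirrel3 at -0.92, Jam2 at -0.63, Nectin1 at -0.52 and F11r at -0.51.

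Protocadherin clusters are controlled by looping of DNA through cohesin and CTCF and by silencing factors. Of 17 such regulators measured 8 were higher and 5 lower with thapsigargin against DMSO, beside 18.2% and 16.9% of all genes. Those higher were led by Pds5a at 0.93 and Wapl at 0.75, which act on cohesin, the cohesin subunit gene Stag1 at 0.66, and Smchd1 at 0.68. Those lower, named after their values were seen, were the cohesin subunit genes Rad21 at -0.33, Stag2 at -0.30 and Smc1a at -0.16 and the DNA methyltransferase genes Dnmt3a at -0.32 and Dnmt1 at -0.18, so genes of cohesin moved in both directions. The calls of Smc1a and Dnmt1 were lost after centring on array medians (limma adjusted p = 0.111 and 0.0887) and without DMSO replicate 2 or thapsigargin replicate 1 or 2 (from 0.0578 to 0.107), and that of Smc1a in a fit of the 6 arrays compared (0.0589). Smchd1, which silences the inactive X chromosome and protocadherin clusters in mice, read 10.41, 10.25 and 10.31 with thapsigargin plus forskolin, 9.31, 9.27 and 9.38 with thapsigargin, and 8.42, 8.72 and 8.77 with DMSO. It rose in both steps, and when forskolin was added it was the one regulator called, at 1.005 ± 0.09 (limma adjusted p = 0.000214), where 3.7% of all genes were higher. Stag2 was called too, at 0.20, without DMSO replicate 1, with array weights and in a fit of the 6 arrays compared (limma adjusted p = 0.027, 0.0457 and 0.0396). With the combined treatment against DMSO 7 regulators were higher and 2 lower, beside 17.9% and 16.7% of all genes, with Smchd1 at 1.69, Pds5a at 0.76, Stag1 at 0.71 and Wapl at 0.61, and the 2 lower ones, named after their values were seen, Dnmt3a at -0.41 and Rad21 at -0.24. The part of these regulators in the falls of the Pcdhb genes was not tested.

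Of 14 measured genes downstream of protocadherins 2 were higher and 5 lower with thapsigargin against DMSO, beside 18.2% and 16.9% of all genes. The kinase gene Ptk2b, which clustered protocadherins inhibit, gave -1.50, the kinase gene Fyn 0.78, Pip5k1c -0.40 and the WAVE complex gene Abi2 0.37. When forskolin was added Fyn alone was called, at 0.20, beside 3.7% higher of all genes, and lost its call without any 1 of the 6 treated arrays (limma adjusted p from 0.0853 to 0.115) and after centring on array medians (0.0998). With the combined treatment against DMSO 2 were higher and 7 lower, beside 17.9% and 16.7% of all genes, with Ptk2b at -1.62, Fyn at 0.98, Pip5k1c at -0.44 and Brk1 at -0.43.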

How the data were processed

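Cultured mouse podocytes were measured on 9 arrays, 3 per group, with groups and replicate numbers taken from the sample titles. The deposited values are log2 signals for each probe set; the submitters' processing notes name affy and RMA. For tool versions and the array's genome build, nothing is stated in the sources used here. RMA makes the arrays' distributions alike, so changes are relative to the bulk of genes, and the number of arrays limits the precision. Background was not checked, since scanner files were not used.

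Of 41345 probe sets, 23521 have 1 gene symbol, 1814 several and 16010 none. For each of 22180 genes the probe set brightest on average was kept, and all 58 members matched RefSeq (GRCm38.p6) by Entrez ID. Group means of the 9 arrays were fitted together in limma 3.58.1 (R 4.3.3; 6 residual degrees of freedom), and 3 contrasts were tested two-sided with eBayes and adjusted by Benjamini-Hochberg over all genes. The fit was tested on simulated data in which 200 genes were changed. Figures used matplotlib 3.10.9 in Python 3.11.15.

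Called members with a group mean above the median, and 8 set cadherins, are given on every array, other called members by change, and uncalled ones by range with the 3 highest named. Partner lists name up to 4 called members per comparison. The members and lists were chosen with earlier results of these data known. Alternatives were a fit of the 6 arrays compared, an intensity trend with robust prior, array weights, other scalings, filters and probe set rules, limma's treat, a block for the replicate number, and leaving out each array.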

Additional observations from a re-analysis of the deposited data

How the results depend on the processing

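The counts of called members were 21 with thapsigargin against DMSO, 7 for forskolin added to thapsigargin and 20 with the combined treatment against DMSO. Leaving out 1 array at a time gave 17 to 22, 5 to 8 and 18 to 23. Requiring a log2 change beyond 0.5 with limma's treat lowered them to 9, 1 and 8, since many of the called changes are small. Adding a replicate block to the fit gave 23, 7 and 22. The matching shares of all genes are not given here, so these counts show only how the member calls vary with the setting. Under the block Cdh15 was called lower with thapsigargin and with the combined treatment, each against DMSO (-0.18, limma adjusted p = 0.0227 and 0.0218), and Fyn lost its call for added forskolin (limma adjusted p = 0.0638). The numbers share no stated culture or day, and same-numbered arrays did not deviate together in every pair. Correlations of deviations from the group means were -0.0739 to 0.247 for same-numbered pairs and -0.302 to 0.254 for differently numbered pairs. The pairs within replicate 3 were all positive, at 0.211, 0.226 and 0.184. With no culture or day stated, the numbers were not taken to pair the arrays. Of 225 named results, 147 were called, and 20 of these lost the call under at least 1 setting other than treat. Under treat 89 did. None changed direction. Counting members by mean level gave 23 above the median and 7 above the upper quartile of all probe sets. Without background values, a small or uncalled change in a dim member sets no upper limit on how large the change could have been.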
